A study of Mus musculus with 8 samples.

Results

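The 10 miRNA names described here are the passenger strands of the let-7 family, meaning the 3p arms of the let-7 and miR-98 hairpins, in cardiomyocytes isolated from mice after transverse aortic constriction (TAC) or sham surgery. They were chosen by name only, as the listed 3p arms that have a row in the count tables, and make up 10 of the 697 miRNA names counted. Small RNA libraries came from 4 Sham and 4 TAC mice, with 1 library per mouse. The mice were male, and their hearts were taken 14 weeks after surgery and perfused to free the cardiomyocytes. TAC narrows the aorta, so that the left ventricle pumps against a raised pressure, and Sham mice had the surgery without the narrowing. Strain and genotype were not given in the sources used here. The miRNA counts of a library summed to between 4005668 and 5392576 in Sham (median 4767551) and to between 5507169 and 7798943 in TAC (median 6781816).

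A let-7 hairpin is cut by Drosha and then by Dicer into a short duplex of a 5p and a 3p strand. The 5p strand is usually loaded into an Argonaute protein as the guide, which pairs with target mRNAs through its seed, bases 2 to 8, while the 3p strand is mostly released and degraded. let-7 guides are abundant in the adult heart and are known as brakes on cell growth and proliferation. Because both strands come from the same hairpin, the count of a 3p arm relative to its 5p arm in the same library needs no scaling between libraries. Which strand was loaded and how long each lasted were not measured.

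The mature sequences of RefSeq on GRCm38.p6 are shown for the 3p arms the results turn on, because their seeds differ where the 5p seeds do not. Capitals mark the seed, and mmu marks a mouse name and is left out in most sentences below. The first 4 share a seed.
mmu-let-7a-1-3p: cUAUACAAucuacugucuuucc
mmu-let-7b-3p: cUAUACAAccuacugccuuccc
mmu-let-7f-1-3p: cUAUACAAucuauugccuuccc
mmu-miR-98-3p: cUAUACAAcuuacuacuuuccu
mmu-let-7d-3p: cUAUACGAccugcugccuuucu
mmu-let-7e-3p: cUAUACGGccuccuagcuuucc
mmu-let-7c-1-3p: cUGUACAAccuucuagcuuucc
mmu-let-7i-3p: cUGCGCAAgcuacugccuugcu
mmu-let-7e-5p: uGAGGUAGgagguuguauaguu
The 10 3p arms held 7 distinct seeds, against 1 seed, GAGGUAG, in all 9 of the 5p names of the same hairpins. Every 3p arm but let-7g-3p began with C. The 2 members not shown, let-7f-2-3p with the seed UAUACAG and let-7g-3p with the seed CUGUACA, were the least counted.

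Some of these strands cannot be told apart by sequence. The 3p arm of let-7c-2, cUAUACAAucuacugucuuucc, is the same 22 bases as let-7a-1-3p, and both names had the same count in all 8 libraries, so the value of let-7a-1-3p may come from either hairpin. let-7f-2-3p differed from let-7a-1-3p at 1 of 21 compared bases, and let-7b-3p from let-7f-1-3p at 2 of 22. let-7e-3p was at least 2 bases from any other let-7 3p arm listed, with let-7a-2-3p the nearest. Its guide let-7e-5p differs from let-7a-5p only in the base after the seed. let-7a-5p averaged 186899 counts per library and let-7e-5p 5784. The part of miscounted let-7a-5p tags in the let-7e ratio was not tested. The 5p names let-7a-5p, let-7c-5p and let-7f-5p each pool several hairpins, so the ratio of a single 3p arm to such a name is a ratio to a pooled guide. How reads that fit several names were counted is not given in the sources used here.

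The hairpins lie at several loci of GRCm38.p6. let-7a-1-3p (chr13:48538188-48538209), let-7f-1-3p (chr13:48537833-48537854) and let-7d-3p (chr13:48536024-48536045), all on the minus strand, lie in an exon of the long noncoding RNA 6720427I07Rik. let-7e-3p (chr17:17830411-17830432, plus strand) lies in an intron of Spaca6, and let-7c-1-3p (chr16:77599717-77599738, plus strand) in an intron of Mir99ahg. let-7b-3p (chr15:85707379-85707400, plus strand) and the hairpin of let-7c-2 lie in exons of Lncppara. miR-98-3p (chrX:151913287-151913308) and let-7f-2-3p (chrX:151912403-151912423), both on the plus strand, lie in introns of Huwe1. let-7g-3p (chr9:106178902-106178923, plus strand) lies in an intron of Wdr82, and let-7i-3p (chr10:122985642-122985663, minus strand) in an exon of D630033A02Rik.

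The libraries carried the miRNAs of cardiomyocytes. All 5 of the cardiomyocyte markers listed were counted in all 8 libraries, led by miR-1a-3p, with a summed level of 177299 ± 16433 CPM (counts scaled to a library total of 1e6) in Sham and 222021 ± 21213 in TAC (SD over 4 libraries, here and below). The 5 markers did not all change in the direction of their sum, and their single values are given with the scales below. The 2 endothelial markers, led by miR-126a-3p, were at 60050 ± 10602 CPM in Sham and 32856 ± 2415 in TAC, and the 4 leukocyte markers, led by miR-150-5p, at 1815 ± 487 and 1109 ± 173. The 3 erythroid markers, led by miR-144-3p, were at 962 ± 444 and 330 ± 249 CPM, and the 7 of fibroblasts and smooth muscle, led by miR-143-3p, at 45882 ± 3237 and 41095 ± 3068. In bulk RNA, fewer cells of a type and less RNA per cell cannot be told apart, and the part of these shifts in the results below was not tested. The library TAC4 stood apart from the other TAC libraries, with 4.58 times their mean for the 10 epithelial markers (led by miR-200a-3p) and 3.90 times for the 3 pancreas markers (led by miR-216a-5p, with miR-217-5p at 0 in some libraries). Those lists were at 400 ± 74.2 and 660 ± 625 CPM (epithelial) and at 21.5 ± 8.15 and 39.3 ± 33.5 CPM (pancreas) in Sham and TAC. Sham1 differed from the other Sham libraries, with miR-126a-3p at 25759 CPM against 36421 to 50698. The main results are given with and without TAC4, and also without Sham1 or over all fits that left out 1 library.

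The 3p arms were rare, and let-7d-3p was most of them. Together the 10 members took 0.0818% ± 0.0153 of the miRNA counts in Sham and 0.0797% ± 0.0101 in TAC. let-7d-3p alone held 84.5% ± 2.74 of the members' counts in Sham and 87.2% ± 1.07 in TAC. All members are 21 or 22 bases long, so their CPM were set side by side without a correction for length. In Sham, mean CPM fell in the order let-7d-3p (694), let-7i-3p (62.0), let-7b-3p (20.9), let-7a-1-3p (13.1), let-7c-1-3p (12.5), miR-98-3p (4.84), let-7f-1-3p (4.26), let-7e-3p (3.92), let-7g-3p (1.64) and let-7f-2-3p (0.867). The ranges over the 4 Sham libraries did not overlap between let-7d-3p and let-7i-3p, between let-7i-3p and let-7b-3p, between let-7c-1-3p and miR-98-3p, or between let-7e-3p and let-7g-3p. All other neighbours in that order overlapped.

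The level of each arm was compared between TAC and Sham on 2 scales, and the choice of scale decides what is read from it. The main scale follows the study in using miR-126a-3p and miR-19b-3p as references: TAC library sizes were multiplied by 0.537, the ratio of these references between the groups, which adds 0.90 to every log2 fold change taken from library totals. By library totals both references were lower in TAC, miR-126a-3p at 39017 ± 10588 CPM in Sham and 22483 ± 1313 in TAC and miR-19b-3p at 213 ± 36.4 and 107 ± 21.4. miR-126a-3p is also the most abundant of the endothelial markers, whose summed CPM was lower in TAC, and the part of endothelial cells in the scale and in the calls made on it was not tested. CPM on this scale is called reference-scaled CPM below. The cardiomyocyte markers had log2 fold changes of 1.71 (miR-208b-3p), 1.44 (miR-1a-3p), 0.93 (miR-499-5p), 0.79 (miR-133a-3p) and 0.62 (miR-208a-3p) on the reference scale. Those of miR-133a-3p and miR-208a-3p lay below 0.90, where a miRNA without change by library totals would lie. Of the names counted, 410 averaged 10 or more counts per library and entered edgeR's quasi-likelihood test. A call needed both an adjusted p under 0.05 and a difference of more than 1.7-fold. Of the 10 members, 8 were tested. let-7f-2-3p, with a mean of 3 counts, and let-7g-3p, with a mean of 8.125, were not.

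**Figure D1:**
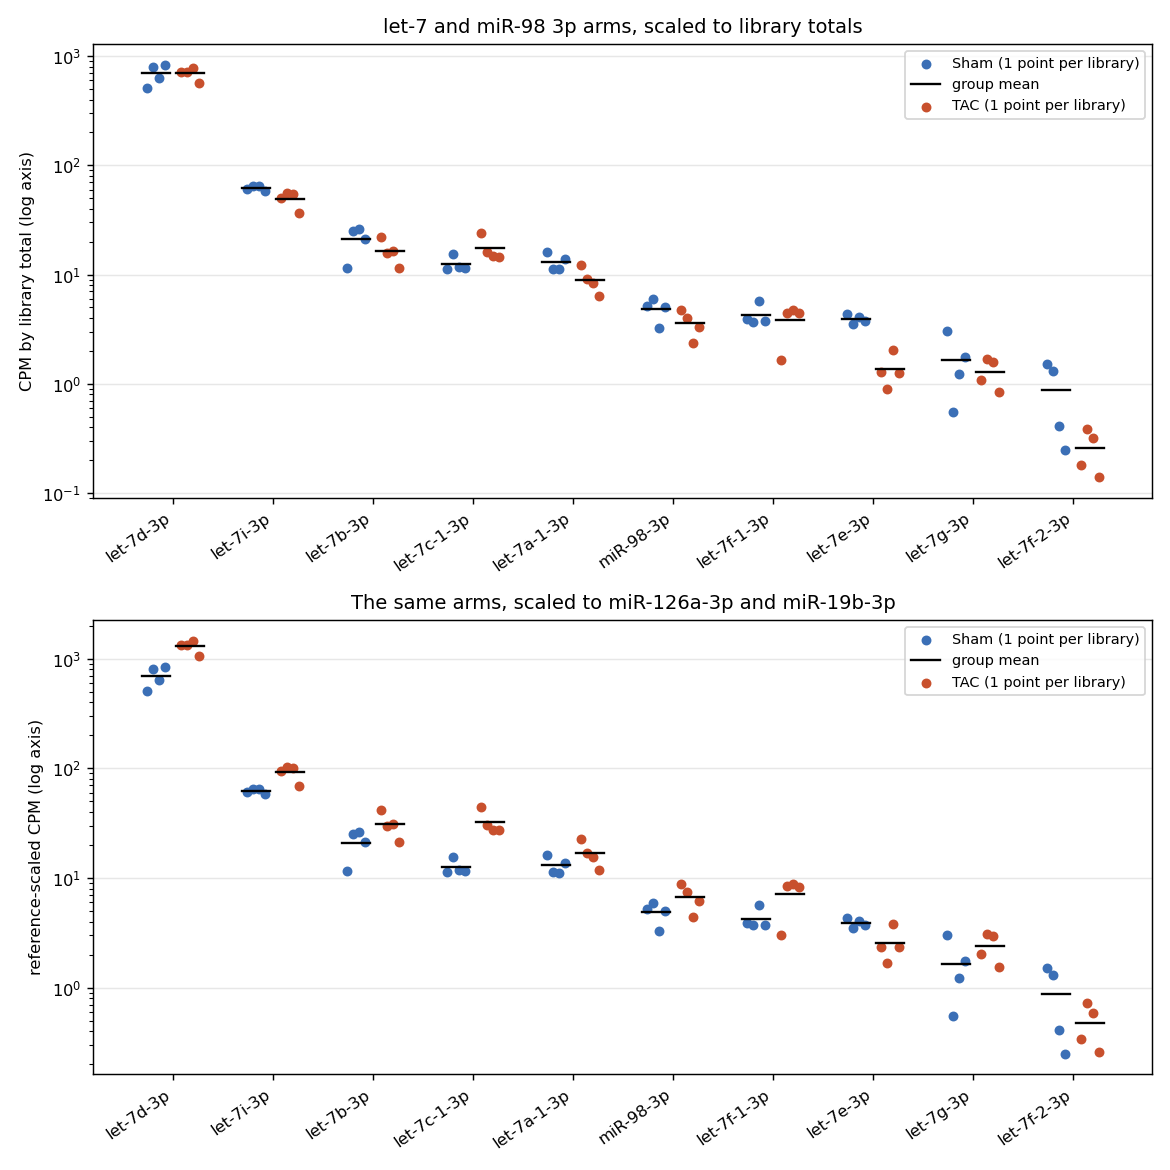
CPM by library total (upper panel) and reference-scaled CPM (lower panel) of the 10 passenger strands on log axes, with 1 point per library (libraries 1 to 4 from left to right within a group) and black bars for group means. let-7d-3p lies far above the next strand in both groups, and in the upper panel the 4 TAC points of let-7e-3p and of let-7i-3p lie below all their Sham points.

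On the reference scale, let-7c-1-3p and let-7d-3p rose in TAC. The counts of mmu-let-7c-1-3p were 52, 83, 58 and 46 in Sham1 to Sham4 and 132, 126, 93 and 105 in TAC1 to TAC4. Its reference-scaled CPM was 12.5 ± 1.95 in Sham and 32.3 ± 8.35 in TAC, with every TAC library above every Sham library. Its log2 fold change was 1.36 (SE 0.24; adjusted p = 0.00155, edgeR), the largest among the members tested, 1.49 without TAC4 and 1.43 without Sham1. let-7c-1-3p comes from the hairpin that lies beside miR-99a in Mir99ahg. By library totals its log2 fold change was 0.47 (adjusted p = 0.225, edgeR), and the groups overlapped through TAC4 and TAC3, which lay at 14.5 and 14.7 CPM against 15.4 in Sham2.

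The counts of mmu-let-7d-3p were 2368, 4292, 3102 and 3348 in Sham and 3908, 5598, 4943 and 4128 in TAC. Reference-scaled CPM was 694 ± 150 in Sham and 1294 ± 164 in TAC, again without overlap. The log2 fold change was 0.90 (SE 0.18; adjusted p = 0.00269, edgeR), 1.04 without TAC4 and 0.89 without Sham1. As CPM of library totals the same arm was at 694 ± 150 and 695 ± 87.8, which is equal within the spread of either group. The strand that makes up most passenger counts of the family was thus called on the reference scale and was level by library totals.

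The other tested members were not called. mmu-let-7i-3p had 279, 347, 318 and 235 counts in Sham and 279, 433, 344 and 265 in TAC. Its groups did not overlap on either scale, but in opposite directions: reference-scaled CPM was 62.0 ± 3.02 in Sham and 91.8 ± 16.1 in TAC, and CPM by library total was 62.0 ± 3.02 and 49.3 ± 8.64. Its log2 fold change of 0.57 (SE 0.18; adjusted p = 0.0260, edgeR) was below the fold threshold. let-7f-1-3p (0.75), let-7b-3p (0.55), miR-98-3p (0.46) and let-7a-1-3p (0.35) had adjusted p of 0.121, 0.151, 0.266 and 0.296 (edgeR). Leaving out 1 library moved let-7a-1-3p between 0.18 (without TAC1) and 0.59 (without Sham1). miR-98-3p then moved between 0.23 (without Sham3) and 0.61 (without Sham1). let-7f-1-3p was at 9 counts in TAC1 and at 30 to 35 in the other TAC libraries, and without TAC1 it was called (log2 fold change 0.99, adjusted p = 0.0237, edgeR). The 2 members below the count minimum had TAC-to-Sham ratios of reference-scaled CPM of 1.47 (let-7g-3p) and 0.548 (let-7f-2-3p), with overlapping groups.

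The calls of the 3p arms are set here beside those of all tested miRNAs, and the difference between both was not tested. On the reference scale, called higher were 2 of 8 tested members, where 29.8% of all tested miRNAs were called higher, and none was called lower, against 0.488% of all. At an adjusted p below 0.05 without a fold threshold there were 3 of 8, against 42.7% of all. The third, let-7i-3p, was above that adjusted p with the replicate block (0.0504), with 1 reference factor per library (0.105), with miR-126a-3p alone as reference (0.0677), with no filter on low counts (0.0519) and in 4 of the 8 fits that left out 1 library (up to 0.104, all edgeR). The median log2 fold change was 0.56 over the tested members and 0.59 over all 410. Reference-scaled CPM did not overlap between the groups, with TAC above, for 3 of the 8, against 39.8% of all miRNAs tested. By library totals the medians were -0.34 and -0.31, and 0 of 8 were called higher, against 0.244% of all. With edgeR's TMM normalization, which holds the bulk of the miRNAs level, the medians were 0.0045 and 0.044, and 0 of 8 were called higher, against 1.95% of all. By library totals, CPM did not overlap for 2 of the 8 with TAC below, against 19.5% of all. Of the 5p names of the same hairpins, 8 of 9 were called higher on the reference scale, against the same 29.8% of all miRNAs, with log2 fold changes from 0.74 (let-7e-5p) to 1.23 (miR-98-5p). By library totals their TAC-to-Sham ratios of mean CPM ran from 0.894 (let-7e-5p) to 1.26 (miR-98-5p), those of let-7g-5p (0.987) and let-7i-5p (0.913) were also below 1, and the groups overlapped for all but let-7c-5p, which was above Sham.

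**Figure D2:**
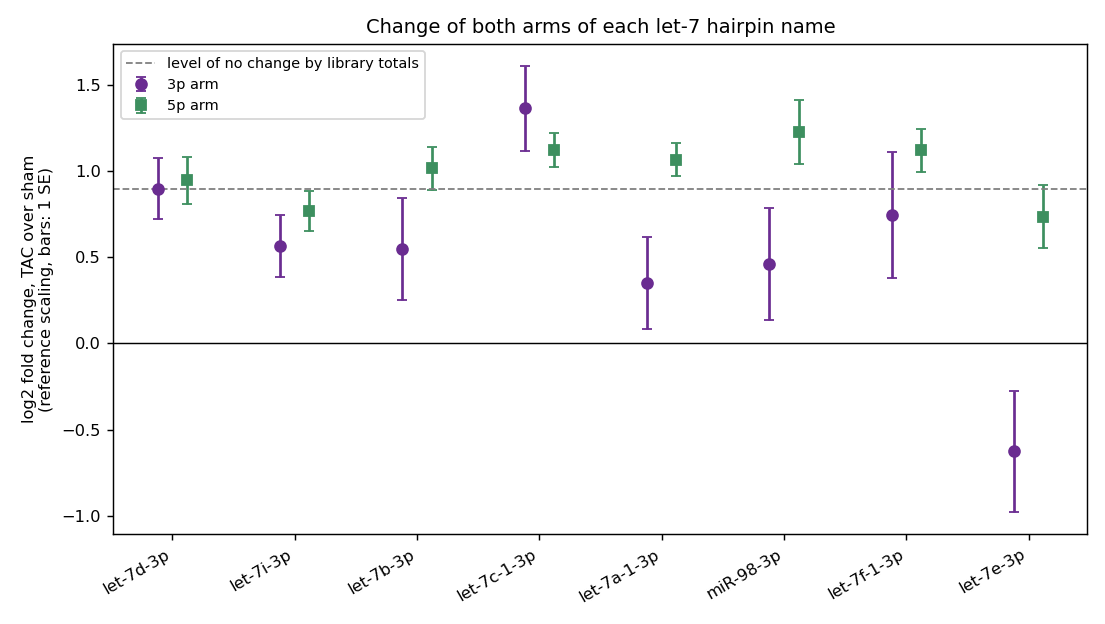
Log2 fold change of the level (TAC over Sham, reference scaling) of the 8 tested 3p arms (circles) and of the 5p name of the same hairpin (squares), with bars of 1 SE and a dashed line where a miRNA would lie that did not change by library totals. let-7c-1-3p is the only 3p arm above its 5p name, and let-7e-3p at -0.63 lies farthest below, with let-7e-5p at 0.74.

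let-7e-3p is described next beside its own guide. mmu-let-7e-3p had 20, 19, 20 and 15 counts in Sham1 to Sham4 and 7, 7, 13 and 9 in TAC1 to TAC4, although the TAC libraries were deeper. let-7e-5p had 3654, 7548, 5833 and 3701 counts in Sham and 6137, 6627, 5980 and 6792 in TAC. The highest 3p count in TAC (13) was thus below the lowest in Sham (15), while the 5p counts overlapped. On the reference scale let-7e-3p was at 3.92 ± 0.353 CPM in Sham and 2.55 ± 0.907 in TAC, with the groups overlapping through TAC3 (log2 fold change -0.63, SE 0.35, adjusted p = 0.166, edgeR). By library totals it was at 1.37 ± 0.487 CPM in TAC and was called lower (log2 fold change -1.52, adjusted p = 0.0177, edgeR). Of all miRNAs, 8.78% were called lower on that scale. let-7e-3p averaged 18.5 counts in Sham and 9 in TAC, so it met the count minimum of the level test through Sham, where it is high. Without that minimum its level was fitted on the reference scale only (-0.63, adjusted p = 0.272, edgeR), so the call by library totals was not tested without it. let-7e-5p, at 0.74 on the reference scale (SE 0.18; adjusted p = 0.00815, edgeR), had the lowest fold change of the 9 guides and was the guide under the fold threshold.

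The counts of both arms of a hairpin were then compared within each library. The ratio of 3p to 5p counts was tested with both arms in the same edgeR fit, with a term for each library, so that neither scale enters. Both arms averaged 10 or more counts in 124 hairpin names, 8 of them members and 3 the sums of all 3p arms behind let-7a-5p, let-7c-5p and let-7f-5p, and a ratio was called changed at an adjusted p below 0.05. let-7e-3p passed, and was the 1 member of 8 to do so. It averaged 18.5 counts in Sham and 9 in TAC, so it met the minimum of 10 through Sham, where it is high, and with a minimum of 1 count its log2 change was -1.38 (adjusted p = 0.0427, edgeR). It stood at 5.47, 2.52, 3.43 and 4.05 counts per 1000 counts of let-7e-5p in Sham1 to Sham4 and at 1.14, 1.06, 2.17 and 1.33 in TAC1 to TAC4. All TAC libraries lay below all Sham libraries, with means of 1.42 ± 0.512 and 3.87 ± 1.24.

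The log2 change of this ratio was -1.38 (SE 0.35; adjusted p = 0.0107, edgeR), a 2.60-fold lower ratio with a 95% interval of -2.07 to -0.68 on the log2 scale. A two-sided exact permutation test, with 70 ways to arrange the libraries, gave p = 0.0286, the smallest it can give. Among all 124 names, 1.61% were called lower and 3.23% higher, and let-7e had the lowest change of all. Without TAC4 the log2 change was -1.34 (adjusted p = 0.0425, edgeR). Leaving out 1 library at a time, Sham1 included, gave -1.63 to -1.18 (adjusted p up to 0.0436, edgeR). The let-7e ratio rests on 7 to 20 counts of the 3p arm per library, so the interval is wide. Whether the change of let-7e differed from that of the other let-7 hairpins was not tested.

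**Figure D3:**
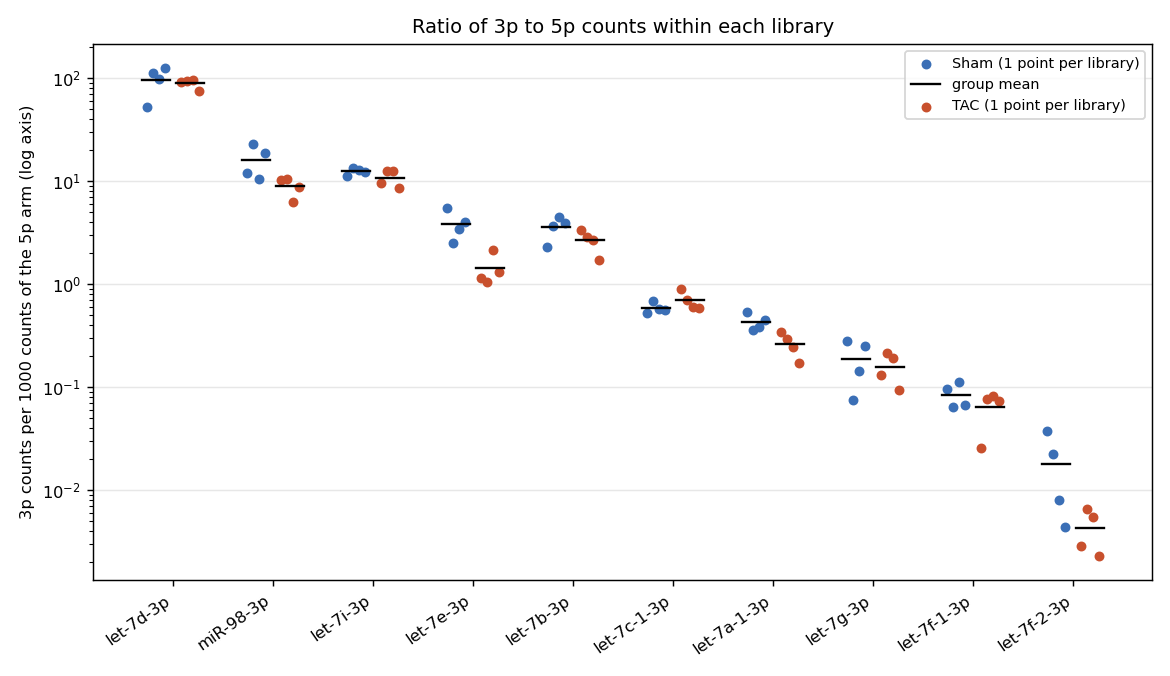
Counts of each 3p arm per 1000 counts of its 5p name within a library, on a log axis, with 1 point per library (libraries 1 to 4 from left to right within a group) and black bars for group means. For let-7e-3p and let-7a-1-3p the 4 TAC points lie below the 4 Sham points, and for the other 8 strands the groups overlap.

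The ratios of the other members did not pass. let-7a-1-3p came nearest: its 61, 55 and 55 counts in Sham2 to Sham4 and 75 in Sham1 compare with 67, 71, 53 and 46 in TAC, beside a let-7a-5p that had 122737 to 171060 counts in Sham and 193222 to 267019 in TAC. Per 1000 counts of let-7a-5p it was at 0.431 ± 0.0804 in Sham and 0.265 ± 0.0740 in TAC, again with no overlap. The log2 change was -0.72 (SE 0.25), the adjusted p 0.0719 in edgeR and the exact permutation p 0.0286. Leaving out 1 library at a time moved the log2 change between -0.87 without TAC1 (adjusted p = 0.0158) and -0.54 without TAC4 (adjusted p = 0.171), and the adjusted p was below 0.05 only without TAC1 and was highest without Sham4 (0.199, edgeR). Since the same tag is also listed as let-7c-2-3p, it was set against let-7c-5p as well, where it was at 0.622 ± 0.117 per 1000 in Sham and 0.363 ± 0.0854 in TAC, also without overlap.

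miR-98-3p stood at 16.1 ± 5.83 per 1000 of miR-98-5p in Sham and 8.98 ± 1.94 in TAC (log2 change -0.79, SE 0.31, adjusted p = 0.109, edgeR). Its TAC values of 10.3, 10.5, 6.32 and 8.78 overlapped with Sham3 at 10.5, while Sham2 was highest at 23.0. let-7b-3p was at 3.62 ± 0.932 and 2.68 ± 0.700 per 1000 of let-7b-5p (log2 change -0.45, adjusted p = 0.257, edgeR), with Sham1 lowest among Sham at 2.32. let-7f-1-3p, at 0.0851 ± 0.0239 and 0.0647 ± 0.0262 per 1000 of let-7f-5p, and let-7i-3p, at 12.5 ± 1.02 and 10.9 ± 2.04 per 1000 of let-7i-5p, had log2 changes of -0.37 (SE 0.32) and -0.21 (SE 0.20), with adjusted p of 0.544 and 0.591 (edgeR). Without TAC4 the log2 changes were -0.26 for let-7b-3p and -0.11 for let-7i-3p, and that of let-7f-1-3p was -0.11 without TAC1 and -0.20 without Sham3. Adding the 3p arms of all hairpins behind a pooled guide gave log2 changes of -0.66 for let-7a (adjusted p = 0.0795), -0.21 for let-7c (adjusted p = 0.591) and -0.56 for let-7f (adjusted p = 0.269), all from edgeR. The tag shared by let-7a-1-3p and let-7c-2-3p enters the sums of both let-7a and let-7c, so these are not independent, and let-7c-1-3p without it was at 0.22.

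let-7c-1-3p, which had the largest rise in level, was also the only member whose ratio was higher in TAC, at 0.589 ± 0.0708 and 0.697 ± 0.147 per 1000 of let-7c-5p (log2 change 0.22, SE 0.23, adjusted p = 0.591, edgeR). Its 95% interval ran from -0.23 to 0.67, and leaving out 1 library gave 0.088 (without TAC1) to 0.31 (without Sham2). let-7d-3p kept the highest share of its hairpin, at 8.80% ± 2.66 of both arms in Sham and 8.24% ± 0.839 in TAC. Per 1000 of let-7d-5p it stood at 53.1, 113, 98.1 and 125 in Sham and at 92.2, 94.8, 97.1 and 75.3 in TAC, a log2 change of -0.053 (SE 0.22, 95% interval -0.49 to 0.38). Sham1 lay far below the other Sham libraries. The log2 change was -0.32 without Sham1 (adjusted p = 0.411, edgeR) and 0.029 without TAC4. At the other end, let-7f-2-3p and let-7g-3p were at 0.0181 and 0.189 per 1000 in Sham and at 0.00432 and 0.158 in TAC. Their counts were below the minimum of the edgeR fit. The exact permutation test gave p = 0.114 for let-7f-2-3p (log2 difference -1.75) and p = 0.743 for let-7g-3p (-0.15). Among the members, the passenger share of a hairpin name thus spanned from 0.00181% (let-7f-2-3p) to 8.80% (let-7d-3p) in Sham. The median 3p share of the 74 tested names whose 3p arm is the minor arm was 5.15%.

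Of the 8 tested ratios, 7 were lower in TAC by their estimate, where 44.4% of all 124 names were. That count includes let-7d-3p, whose sign turned without TAC4 (0.029), without Sham2 (0.043) and without Sham4 (0.092). Their median log2 change was -0.41, against 0.062 over all names and the same 0.062 over the 74 names whose 3p arm is the minor arm. An unadjusted p below 0.05 with a lower ratio was found for 3 of the 8 (let-7e-3p, let-7a-1-3p and miR-98-3p), against 7.26% of all names. No overlap between the groups, with TAC below, was seen for 2 of the 8, against 6.45% of all names. The members are not independent of each other, since several share a guide name, a locus or nearly the same sequence, and 1 of the 8 passed the adjusted threshold.

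**Figure D4:**
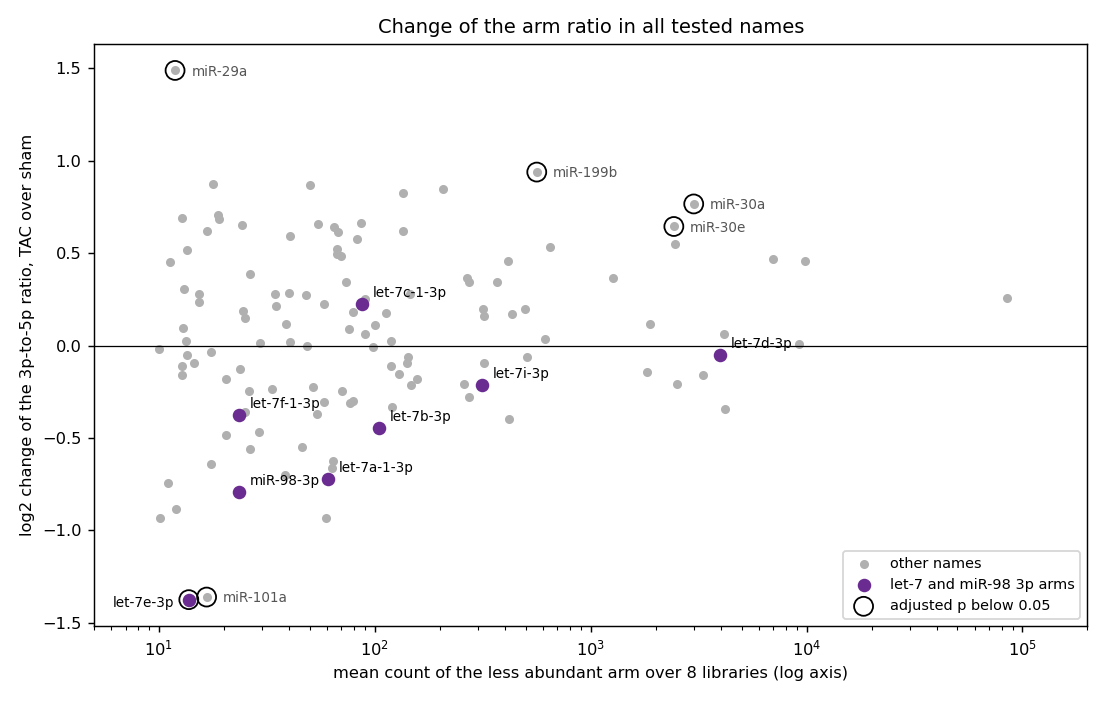
Log2 change of the 3p-to-5p ratio (TAC over Sham) against the mean count of the less abundant arm (log axis) for all 124 tested names, with the 8 passenger strands of let-7 and miR-98 named and rings at an adjusted p below 0.05. let-7e-3p at -1.38 is the lowest point, 7 of the 8 named strands lie below 0, and let-7d-3p lies near 0 with the most counts.

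Outside the family, 5 names had a changed ratio. The ratio of 3p to 5p was higher for miR-29a (log2 change 1.49, adjusted p = 0.0185), miR-199b (0.94, adjusted p = 0.00748), miR-30a (0.77, adjusted p = 0.0107) and miR-30e (0.64, adjusted p = 0.0489), and lower for miR-101a (-1.36, adjusted p = 0.00748), all from edgeR. miR-199b-3p and miR-199a-3p had nearly the same counts (means of 9184 and 9185), so that ratio sets a 3p tag of both names against 1 of the 5p arms, and the ratio of miR-199a was at 0.0072. miR-29a rests on a mean of 11.9 counts of its 5p arm, and its groups overlapped. The level of that 5p arm was at -0.99 on the reference scale (adjusted p = 0.131, edgeR). It thus met the count minimum through Sham, where it is higher. miR-101a rests on a mean of 16.6 counts of its 5p arm, and its 3p share was 99.91% in Sham and 99.78% in TAC. In miR-30a and miR-30e the 3p arm is the minor one, as in let-7e, and the direction was opposite.

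Seeds and precursor classes group the members in other ways. let-7a-1-3p, let-7b-3p, let-7f-1-3p and miR-98-3p, with the same seed, had ratio changes from -0.79 to -0.37, and none passed. let-7c-1 and let-7e are precursors of the class that Dicer cuts without the addition of a uridine that most let-7 precursors need, and their ratio changes were 0.22 and -1.38. The difference between those classes was not tested.

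let-7e and let-7c-1 sit in clusters of the same make-up, each with a miR-99 and a miR-125 hairpin, and the partners give the levels of other strands of the same loci. Of the 4 partner strands of let-7c-1, 3 were called higher on the reference scale, where 29.8% of all miRNAs were: miR-125b-5p at a log2 fold change of 1.02, miR-125b-2-3p at 0.89 and miR-99a-5p at 0.88. By library totals the TAC-to-Sham ratios of these 3 were 1.09, 0.998 and 0.987, with overlapping groups. miR-99a-3p was at 0.68 (adjusted p = 0.0839, edgeR). None of the 4 partners of let-7e was called on the reference scale. miR-125a-3p (0.75, adjusted p = 0.0271) and miR-125a-5p (0.40, adjusted p = 0.0415) had an adjusted p below 0.05 in edgeR, while miR-99b-5p was at 0.32 and miR-99b-3p at -0.37 (adjusted p = 0.0721 and 0.475). By library totals miR-99b-5p (ratio 0.672), miR-125a-5p (0.710) and miR-99b-3p (0.415) lay below Sham in all TAC libraries, as 19.5% of all miRNAs did on that scale, and miR-125a-3p (0.910) overlapped. Of the let-7a-2 cluster, miR-100-5p was at 0.76 and miR-125b-1-3p at 0.57, with adjusted p of 0.00412 and 0.0225 (edgeR), and neither was past the fold threshold. By library totals both ratios were below 1, miR-100-5p at 0.909 with overlapping groups and miR-125b-1-3p at 0.798 with TAC below Sham in all libraries. miR-125b-5p also has a hairpin in the let-7a-2 cluster, so its value belongs to both loci. Among partner ratios, miR-99b was at -0.64 (adjusted p = 0.257) and miR-125a at 0.34 (adjusted p = 0.389, edgeR), and neither passed. let-7a-2-3p itself, which is not among the 10 members, had 0, 2, 5 and 0 counts in Sham and 4, 10, 3 and 1 in TAC.

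Across the 8 libraries, the miRNAs outside the family whose log2(CPM + 0.5) by library total followed let-7d-3p most closely were miR-664-3p (Pearson's r 0.900), miR-342-5p (0.864), miR-1981-3p (0.847), miR-30a-3p (0.792) and miR-181a-2-3p (0.786). The libraries of both groups enter these values, and all miRNAs of a library share its depth and its total, so they are given as a description only.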

How the data were processed

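Cardiomyocyte RNA of 4 Sham and 4 TAC mice was sequenced as small RNA libraries. The authors deposited whole-number counts of tags per mature mouse miRNA in each library, without normalization, and these counts were used as deposited. The submitters' processing notes name mm10 and StringTie 1.3.1 without a role, and the aligner, the miRNA annotation and the treatment of tags with several matches are not given in the sources used here. No library was a copy of another.

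Levels were tested with edgeR 4.0.16 in R 4.3.3 (quasi-likelihood F test, group as the only term, biological coefficient of variation 0.291), with Benjamini-Hochberg adjustment over 410 miRNAs. Arm ratios were tested by the interaction of arm and group, with a term per library, over 124 names (biological coefficient of variation 0.160). SE is the log2 change over the root of F, and intervals of ratio changes come from the same fit. For the reference factor, the mean CPM of TAC was divided by that of Sham for each reference miRNA, and the geometric mean of both ratios was taken. Single values were compared by an exact permutation test. For levels this factor was recalculated whenever the libraries were rearranged. A count of 1 stood for between 0.128 and 0.250 CPM. Values cover the spread between mice and counting error together, and tags without molecular identifiers are not independent molecules. On the reference scale edgeR takes the factor as fixed. The spread of the reference miRNAs between mice is therefore not in those SE and adjusted p. Named miRNAs were the 10 members, the 5p names of their hairpins, the reference miRNAs, the strands clustered with let-7c-1, let-7e and let-7a-2, up to 5 names outside the family with the largest changes of ratio in each direction among those changed, and the 5 closest correlates of the most abundant member. let-7j, a listed name without separate arms, had 9 to 21 counts in Sham and 18 to 30 in TAC. Members, lists and tests were chosen with earlier results of these data known. Alternatives used limma 3.58.1 and DESeq2 1.42.0, and the fits were tested on simulated data. There edgeR recovered 70.3% of the simulated level changes on the reference scale and 73.1% of the simulated ratio changes. It called 0.654% and 1.03% of the unchanged names. A member that was not called is therefore not shown to be unchanged. Sequences and coordinates are from RefSeq on GRCm38.p6 (all 10 members matched) and host genes from GENCODE vM21. Tables and plots used Python 3.11.15, numpy 2.4.6, pandas 2.3.3 and matplotlib 3.10.9.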

Additional observations from a re-analysis of the deposited data

Results flagged for a closer look

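In 7 of 54 groups of 4 libraries examined, the highest or lowest library lay farther from the rest than Dixon's 95% critical value allows, which chance alone gives in about 1 of 20 groups. Among the passenger strands, CPM by library total was highest in Sham2 for let-7c-1-3p (15.4), highest in Sham3 for let-7f-1-3p (5.71) and lowest in TAC1 for let-7f-1-3p (1.63), where its ratio was also lowest, at 0.0257 per 1000 counts of let-7f-5p. Among the marker lists, TAC4 was lowest for the endothelial list (29274 CPM) and highest for the epithelial list (1594 CPM) and the pancreas list (88.9 CPM). The part of these libraries in the results was not tested beyond leaving each out in turn.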

How the results depend on the processing

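The levels depend on the scale, and the fall of the let-7e ratio does not. Members called higher numbered 2 with the reference scale and 0 with TMM, 0 with library totals and 0 with DESeq2's own size factors. On the reference scale over miRNAs averaging above 100 counts, 1 was called, as let-7c-1-3p (mean 86.875) was not tested there. Called lower was 0 with the reference scale and 1 by library totals. let-7c-1-3p was at 0.81 with TMM (adjusted p = 0.0533, edgeR) and 0.73 with DESeq2's own size factors (adjusted p = 0.0433), and let-7d-3p at 0.33 and 0.27. With 1 reference factor per library, let-7c-1-3p was at 1.35 (adjusted p = 0.00493) and let-7d-3p at 0.89 (adjusted p = 0.0115, edgeR). The sign of the level change turned for let-7a-1-3p (-0.22 with TMM, -0.54 by totals, -0.29 with DESeq2's own size factors), let-7b-3p (-0.0050, -0.35 and -0.076) and miR-98-3p (-0.092, -0.43 and -0.17), for let-7i-3p by totals (-0.33) and DESeq2's own size factors (-0.062), and for let-7f-1-3p by totals (-0.15). DESeq2's own fit gave no adjusted p for let-7e-3p and let-7f-1-3p.

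The let-7e ratio was changed in every alternative in which it was tested, at -1.63 to -1.13. It was not tested where both arms had to average 50 counts, which left 0 changed members. Leaving out 1 library in turn gave 1 to 2 lower ratios (2 without TAC1), 2 to 3 members called higher (3 without TAC1) and a let-7d-3p ratio change of -0.32 to 0.092. With the library numbers as a replicate block, let-7e-3p was at -1.40 (adjusted p = 0.0371, edgeR), and 2 members were called higher, let-7c-1-3p at 1.35 and let-7d-3p at 0.92. Same-numbered libraries correlated in their deviations at -0.25 to 0.21, and the labels do not say that numbers pair mice. Depth limits let-7f-2-3p and let-7g-3p, which fell below the count minimum of the main fits, and let-7e-3p, with at most 20 counts per library. With no filter on low counts, the level of let-7f-2-3p was at -0.83 (adjusted p = 0.503, edgeR) on the reference scale. That of let-7g-3p was at 0.57 (adjusted p = 0.474, edgeR).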
